A study of Mus musculus with 24 samples.

Results

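The genes described here encode the subunits, activators, inhibitor and assembly chaperones of the proteasome, the protease complex that degrades ubiquitin-tagged proteins. They were taken by name from the gene count table, as every symbol made of Psm, a letter from a to g and a number, and 48 of the 45706 genes in the table met this rule. Of these 48, 46 had enough counts to be tested. Psma8, an alpha subunit known from testis, had 0 to 6 counts per library, and Psmb11, the beta subunit of the thymus, had 0 to 2 counts per library. Both were left untested.

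The proteasome is a barrel with a cap at its ends. Its core is a stack of rings, outer rings of alpha subunits (Psma genes) that form the gate and inner rings of beta subunits (Psmb genes), of which Psmb5, Psmb6 and Psmb7 encode the constitutive catalytic subunits. The regulatory cap holds ATPases (Psmc genes), which unfold substrates and open the gate, and non-ATPase subunits (most Psmd genes), some of which bind or remove ubiquitin. Psmd5, Psmd9 and Psmd10 encode chaperones of cap assembly and are counted here by name with the non-ATPases of the cap. Interferon and immune activation replace the catalytic subunits by Psmb8, Psmb9 and Psmb10 to form the immunoproteasome, and favour the alternative activator of Psme1 and Psme2, which does not need ubiquitin. Neurons use the proteasome to remodel synapses, and the transcription factor Nfe2l1 is known to raise most subunit genes together when proteasome activity falls.

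Hypothalami of male mice made obese by diet were dissected whole, and their poly(A) RNA gave 24 libraries. Body weight averaged 53 g, and the libraries fell in 3 groups of 8. Saline mice received isotonic saline. The PSD-95i group received 25 mg/kg of UCCB01-147, an inhibitor of PSD-95, the main scaffold of excitatory synapses, and the PICK1i group received 56 mg/kg of mPD5, which inhibits PICK1, a trafficking adaptor of AMPA receptors. All groups were injected daily for 5 days and were killed 2 h after the last injection. The protocol gives 6 saline mice where the labels give 8 saline libraries, so p-values measure the spread between libraries, which may not all be separate animals. In whole tissue, fewer cells of a type and less RNA per cell cannot be told apart.

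Library totals ranged from 4762703 to 9228858 estimated counts, with a median of 7628245. Some libraries stood apart. Saline replicates 2 and 3 held 63156 and 38562 CPM (counts relative to the library total) of 10 anterior pituitary markers, against at most 55.5 in every other library. PICK1i replicates 1, 2, 5 and 6 had a mitochondrially encoded share of 13.5% to 16.6% of counts, against 7.88% to 11.2% in the other 20 libraries. Long transcripts were under-represented in these PICK1i libraries. Their library numbers are 1, 2, 13 and 14. Each of the 12 pairs of consecutive numbers, counted from 1 and 2, came from a single group. Length tilt, the slope over genes outside the members of a library's log2 deviation from the gene mean on log2 transcript length, lay between -0.18 and -0.11 in these 4 libraries and between -0.03 and 0.09 in the others. Marker lists of the hypothalamus were expressed in every library (1141 to 17632 CPM, the highest in the saline libraries with pituitary RNA, in a list that holds Pomc), and 14 of 14 hypothalamic markers were testable. PICK1i replicate 6 also held 352 CPM of cortical and hippocampal markers, against 28.2 to 150.2 CPM elsewhere. In PICK1i against saline, 4.88% of all tested genes passed the edgeR test (adjusted p under 0.05) and were higher, and 4.27% were lower. Among markers, 3 of 8 neuronal, 1 of 8 oligodendrocyte and 1 of 8 endothelial genes passed and were higher. Those that passed and were lower were 2 of 2 tested pituitary, 2 of 14 hypothalamic, 2 of 7 leptomeningeal and 1 of 7 cortical and hippocampal genes. Of the others, 0 of 12 microglial, 0 of 2 tested leukocyte and 0 of 5 tested red blood cell genes passed. Counted whether or not they passed, 9 of 14 hypothalamic genes (median log2 fold change 0.13) and 6 of 7 cortical and hippocampal genes (median 1.04) were above 0. Of the endothelial genes, 3 of 8 were above 0 (median -0.05).

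The promoter windows of the 5 members past the threshold in PICK1i against saline are shown first. These genes lie on 4 chromosomes. Psmc5 and Psmc4 hold the same set of the motifs searched, and the other genes hold different sets. Each is a 180-base stretch of RefSeq sequence (GRCm38.p6), read in the direction of the gene, from 150 bases before its annotated start to 30 bases after it, except that the Psmc4 stretch ends 21 bases before the start and begins 200 bases before it. Capitals mark matches on either strand to the nuclear respiratory factor element GCGCANGCG and the YY1 site AAGATGG (Psmc5, chr11:106256035-106256214, plus strand; Psmc4, chr7:28050113-28050292, minus strand), to the ETS site CCGGAAG (Psmd13, chr7:140882244-140882423, plus strand), to the core of the antioxidant response element TGACNNNGC (Psmb5, chr14:54617966-54618145, minus strand) and to the GC box GGGCGG (Psma7, chr2:180042435-180042614, minus strand).
Psmc5: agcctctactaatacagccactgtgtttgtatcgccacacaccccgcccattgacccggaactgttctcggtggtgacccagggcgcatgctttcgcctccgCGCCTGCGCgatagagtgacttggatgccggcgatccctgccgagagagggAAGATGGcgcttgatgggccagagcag
Psmc4: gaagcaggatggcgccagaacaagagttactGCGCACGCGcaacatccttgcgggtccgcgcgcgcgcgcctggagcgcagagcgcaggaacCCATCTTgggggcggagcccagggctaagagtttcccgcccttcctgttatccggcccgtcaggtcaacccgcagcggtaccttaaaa
Psmd13: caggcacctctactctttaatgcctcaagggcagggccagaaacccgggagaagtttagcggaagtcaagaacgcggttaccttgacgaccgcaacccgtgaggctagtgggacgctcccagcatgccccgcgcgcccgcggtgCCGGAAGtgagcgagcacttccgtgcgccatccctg
Psmb5: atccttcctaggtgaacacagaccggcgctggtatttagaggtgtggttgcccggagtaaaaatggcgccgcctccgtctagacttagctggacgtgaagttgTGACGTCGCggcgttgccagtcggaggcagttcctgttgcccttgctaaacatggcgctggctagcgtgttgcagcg
Psma7: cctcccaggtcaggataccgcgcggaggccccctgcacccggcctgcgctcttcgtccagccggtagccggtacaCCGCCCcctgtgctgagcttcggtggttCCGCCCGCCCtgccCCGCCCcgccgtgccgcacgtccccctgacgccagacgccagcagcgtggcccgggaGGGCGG

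In Psmc5 the respiratory factor element lay 48 to 40 bases before the start and the YY1 site 4 to 10 bases after it. In Psmc4 the same motifs lay 169 to 161 and 108 to 102 bases before the start. The element in Psmb5 began 47 bases before the start, and the ETS site of Psmd13 spanned the start. Of the 5 GC boxes marked in Psma7, 2 overlap each other. Only the motifs named for a gene were put in capitals. Unmarked GC boxes lie in the Psmc5 stretch, 107 to 102 bases before the start, and in the Psmc4 stretch, 99 to 94 and 73 to 68 bases before it. Across whole windows (250 bases before to 50 after the start, both strands), matches were counted for 39 of the 46 tested members and 10919 tested genes with a window. The ETS site was in 14 of 39 members (35.9%) and in 18.1% of all tested genes. The YY1 site was in 7 members (17.9%) and in 7.96% of the genes, and the nuclear respiratory factor element in 7 (17.9%) and 14.3%. The antioxidant element core was in 6 members, namely Psmb5, Psmb6, Psmc6, Psmd9, Psmd12 and Psme4 (15.4%), against 16.8% of the genes. The GC box was in 59.0% of members and 68.0% of genes, CCAAT in 33.3% and 42.6%, and TATAAA in 10.3% and 8.75%. GAAANNGAA, the core of the interferon-stimulated response element, was in 7 members (17.9%) and in 8.49% of genes, and among the immunoproteasome genes it was in Psme1. These matches are descriptions of letters, not of binding.

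In saline, the core and cap genes other than Psma8 and Psmb11 were expressed at 19.9 to 287 TPM, while the immunoproteasome genes ran from 3.06 to 123 TPM. Levels between genes were compared per length, and TPM is the number of transcripts relative to all transcripts of the library, corrected for their length. Psmb6, a catalytic beta subunit, had the highest level of the 48, at 287 ± 19.2 TPM (SD, n = 8), followed by Psmb4, an inner-ring subunit without catalytic activity, at 266 ± 26.9 TPM. Their SDs between libraries overlap, and the order of these neighbours within each library was not compared. Psmc5 (223 ± 30.9 TPM) and Psmc1 (214 ± 30.7 TPM), both ATPases, and Psma6 of the outer ring (204 ± 14.97 TPM) came next and also overlapped. Psmd4, a ubiquitin receptor of the cap, reached 183 ± 23.9 TPM and Psmd14, a deubiquitinase that removes ubiquitin at the cap, 99.97 ± 12.3 TPM. The median was 112 TPM over the 8 alpha-ring genes, Psma8 included, 154 TPM over the 8 beta-ring genes outside the immunoproteasome, Psmb11 included, 157 TPM over the ATPases and 91.5 TPM over the non-ATPases.

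The catalytic subunits of the immunoproteasome were far below their constitutive counterparts. Psmb8 stood at 5.09 ± 2.31 TPM and Psmb9 at 3.06 ± 1.93 TPM. As shares of the subunit that each replaces, Psmb8 was 3.40% ± 2.09 of Psmb5 and Psmb9 1.10% ± 0.798 of Psmb6. Psmb10 was an exception at 38.3 ± 3.62 TPM, which was 32.8% ± 3.83 of Psmb7. The activator genes Psme1 (123 ± 10.9 TPM) and Psme2 (71.8 ± 11.5 TPM) were at the level of the cap. Psme3, a nuclear activator, was at 97.2 ± 12.8 TPM, Psmf1, the inhibitor of the core, at 33.5 ± 3.29 TPM, and Psme4, an activator known for histone degradation, at 15.6 ± 2.03 TPM. The 4 core assembly chaperones (Psmg1 to Psmg4), which help to build the rings, lay between 11.03 and 22.9 TPM. Without saline replicates 2 and 3, the pituitary-rich libraries, Psmb8 was at 3.99 ± 1.14 TPM and Psmb9 at 2.24 ± 0.674 TPM (SD). In saline replicates 2 and 3, Psmb8 was 6.43% and 6.88% of Psmb5, against 1.23% to 2.92% in the other saline libraries. Psmb9 was 2.96% and 1.33% of Psmb6 in these replicates, against 0.518% to 1.10% in the others. The saline means and SDs of both genes thus rest in part on these libraries.

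**Figure D1:**
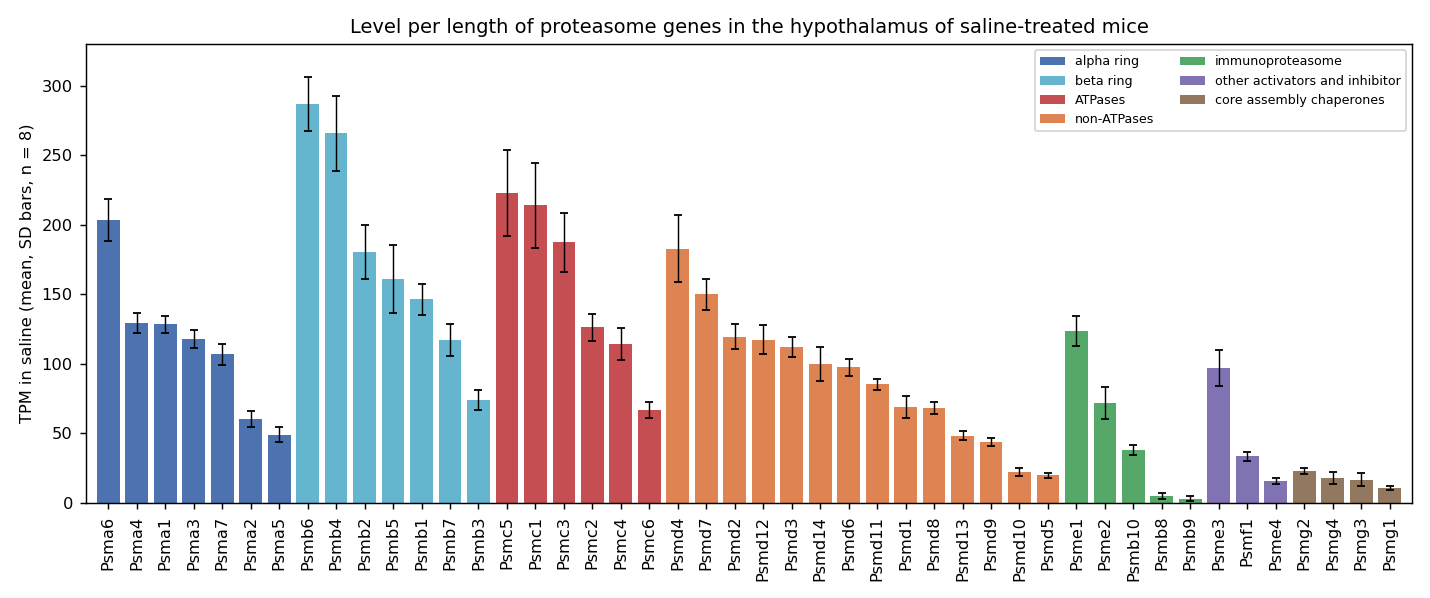
Level per length in saline of the 46 members above 1 TPM, with bars for the mean of 8 libraries and lines for the SD, coloured by subgroup. Psmb6 and Psmb4 stand highest at 287 and 266 TPM, and Psmb8 and Psmb9 lowest at 5.09 and 3.06 TPM.

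Most members were made of more than 1 annotated transcript: 226 transcripts were listed for the 48 genes. In 14 members the leading transcript held over 90% of the saline count, and in 22 it held under 60%. For Psmb5 and Psmb10 a single transcript held all counts, and for Psmc5 the leading transcript held 94.1% ± 2.26. The leading transcript of Psma7 was annotated as a retained intron and held 34.1% ± 2.13 of the count in saline, and the share was 32.1% ± 2.32 after PSD-95i and 29.6% ± 3.21 after PICK1i. The assignment of reads among transcripts of a gene is an estimate whose error is not known here, and no test was run on these shares. The members sit on 16 chromosomes, 8 of them on chromosome 11. Psmb8 and Psmb9 lie close together on chromosome 17, as Psme1 and Psme2 do on chromosome 14.

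Against saline, 5 of 46 tested proteasome genes rose in PICK1i and none fell in the edgeR fit of all 3 groups. All 5 encode constitutive subunits. With only the PICK1i and saline libraries in the fit, 0 of the 46 members and 0 of 15287 genes passed. With limma-voom and pairs of neighbouring library numbers as a random effect, 2.02% of all genes passed. Of the members, Psmc5 alone then stayed past the threshold (adjusted p = 0.0456). The other 4 called members had adjusted p from 0.0632 (Psmb5) to 0.0948 (Psmd13) in that blocked fit. Psmc5, Psmc4 and Psmd13 of the cap and Psmb5 and Psma7 of the core rose by 0.23 to 0.32 on the log2 scale. In the edgeR fit that gave the 5 calls, 9.15% of the 15667 tested genes passed the adjusted threshold of 0.05, 4.88% upward and 4.27% downward. The 5 of 46 members are to be read against that background. The log2 fold change was above 0 in 40 of 46 members, with a median of 0.11, against a median of -0.01 over all genes, of which 7546 of 15667 were above 0. Unadjusted p fell under 0.05 in 17 of 46 members and in 4509 genes in all. The members were named for proteasome function and earlier results on these data were known, so these counts describe the list and are not independent support.

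Psmc5, one of the ATPases, held 122 to 170 CPM in saline (median 158), 140.1 to 179 after PSD-95i (median 169.8) and 159 to 226 after PICK1i (median 197). All 8 PICK1i libraries were above the saline median and 6 were above every saline library, so the groups overlapped in the lower PICK1i values. The log2 fold change was 0.32 ± 0.08 (SE), with an adjusted p of 0.0197 by edgeR's quasi-likelihood test.

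Psmb5, the catalytic subunit with chymotrypsin-like activity, held 54.4 to 83.4 CPM in saline (median 78.5), 74.2 to 93.1 after PSD-95i (median 83.2) and 72.2 to 115 after PICK1i (median 93.8). In 7 of the 8 PICK1i libraries it was above every saline library, and in the other it lay within the saline range. The log2 fold change was 0.32 ± 0.09 (SE), with an adjusted p of 0.0276. One saline library, replicate 3, lay at 54.4 CPM, below the other 7.

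Psmc4, another ATPase, held 46.5 to 59.8 CPM in saline (median 53.9), 49.3 to 63.2 after PSD-95i and 53.3 to 72.5 after PICK1i (median 67.4). The log2 fold change was 0.24 ± 0.07 (SE, adjusted p = 0.0346), with 5 of 8 PICK1i libraries above every saline library. Psmd13, a cap subunit, held 32.5 to 37.6 CPM in saline (median 36.4), 33.9 to 41.6 after PSD-95i and 35.6 to 54.1 after PICK1i (median 41.9). Its log2 fold change was 0.25 ± 0.07 (SE, adjusted p = 0.0369), and 5 PICK1i libraries exceeded every saline library.

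Psma7, an alpha-ring subunit, held 49.6 to 57.4 CPM in saline (median 51.4), 49.6 to 58.2 after PSD-95i and 50.3 to 75.8 after PICK1i (median 59.96). The log2 fold change was 0.23 ± 0.07 (SE, adjusted p = 0.0373), and 4 PICK1i libraries were above every saline library. For each of these genes the spread between PICK1i libraries was wider than between saline libraries.

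**Figure D2:**
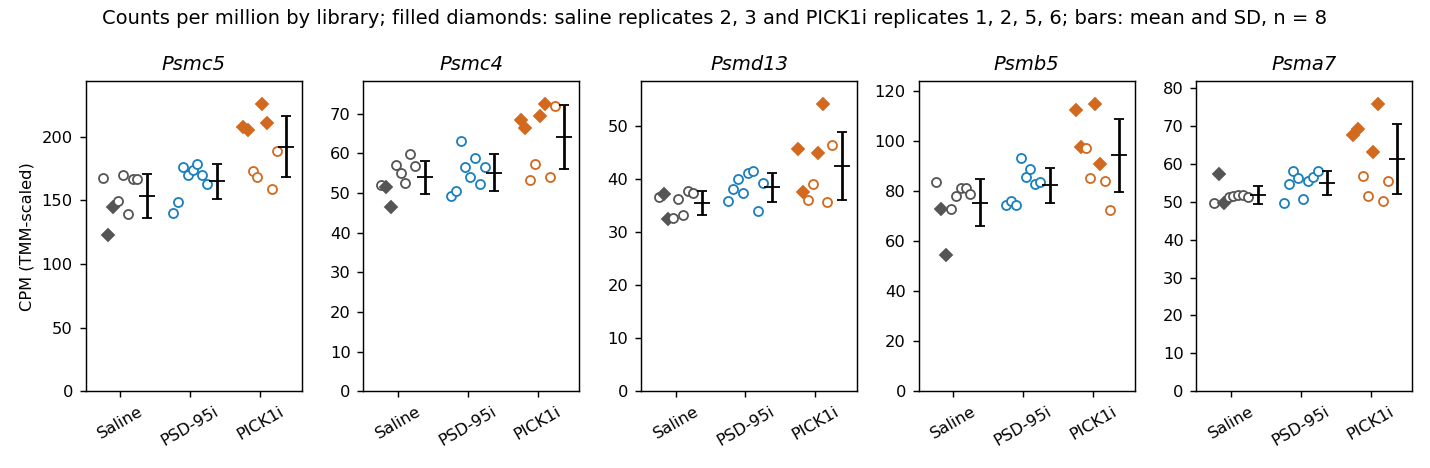
CPM in every library of the 5 members past the threshold in PICK1i against saline, on axes that start at 0, with circles for libraries, filled diamonds for saline replicates 2 and 3 and PICK1i replicates 1, 2, 5 and 6, and black bars for the mean and SD (n = 8). The filled PICK1i diamonds hold the upper values of Psmc5 (205 to 226 CPM), while the 4 open PICK1i circles lie at 159 to 189 CPM.

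In the core, all 14 tested core members were above 0, with a median of 0.17, but 2 of them passed the threshold. Among the others, the smallest p was that of Psma4 in the outer ring (0.21, adjusted p = 0.0689) and that of Psmb7, the catalytic subunit with trypsin-like activity, in the inner ring (0.18, adjusted p = 0.0522). In the cap 17 of 20 members were above 0 with a median of 0.09. Psmd4, a ubiquitin receptor, was at 0.21 (adjusted p = 0.0527), while Psmd1 and Psmd2, the large scaffold subunits, were at -0.09 and 0.00. Short members were higher than long ones. The 20 members with a length under 1200 bases had a median of 0.20 and all were above 0, the 18 from 1200 to 2000 bases had a median of 0.09, and the 8 over 2000 bases had a median of 0.01. The median length was 1298 bases in the members and 2470 in all tested genes.

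**Figure D3:**
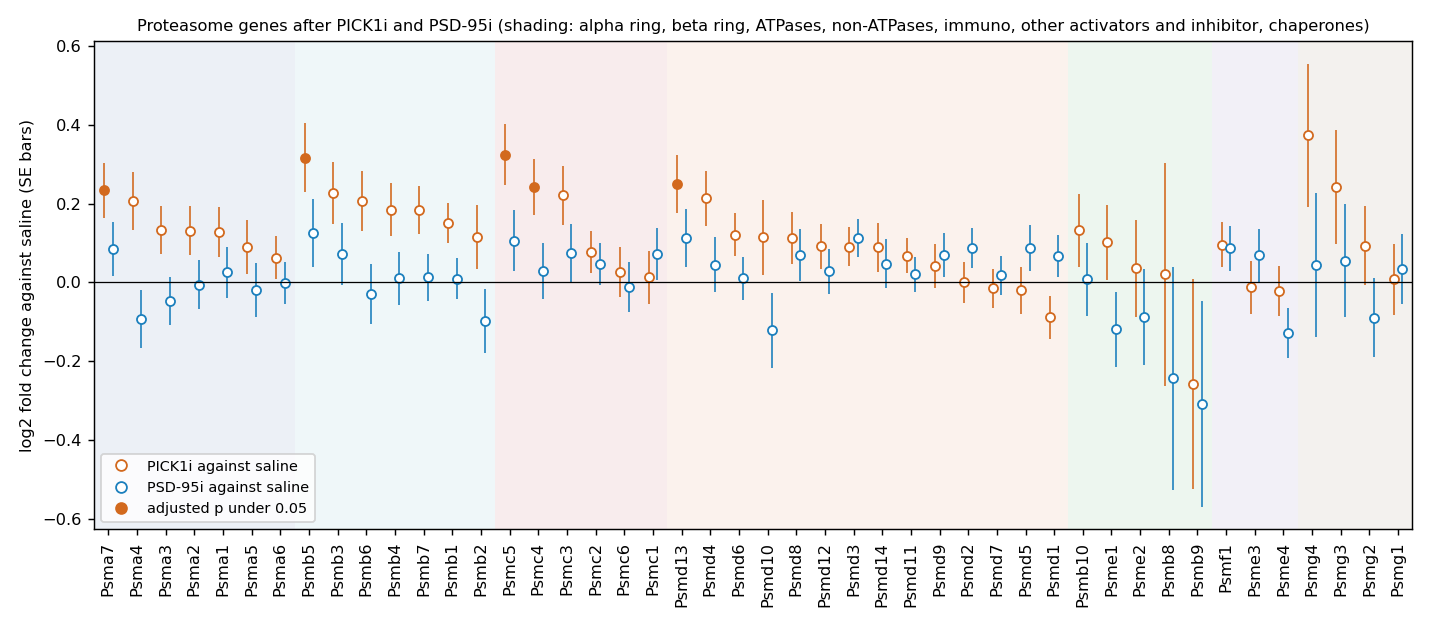
Log2 fold change against saline, with SE bars, of the 46 tested members in PICK1i (orange) and PSD-95i (blue), grouped by the shaded subgroups and ordered within them by the PICK1i value. The 5 filled points are the members past the threshold, all in PICK1i.

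The core assembly chaperones (Psmg genes) were above 0 in 4 of 4 cases and none passed the threshold, with 1 at an unadjusted p under 0.05. The chaperones of cap assembly are counted with the cap. Psmg4 was at 0.37 ± 0.18 (SE, adjusted p = 0.172) and Psmg3 at 0.24 ± 0.14 (SE, adjusted p = 0.268). Psmf1, Psme3 and Psme4 lay between -0.02 and 0.10.

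The upper PICK1i values lay mainly in the 4 libraries with the high mitochondrial share. The median deviation of the constitutive beta ring from its gene means was 0.06 to 0.37 (log2 CPM) in PICK1i replicates 1, 2, 5 and 6, -0.06 to 0.10 in the other 4 PICK1i libraries, -0.09 to 0.01 in saline without replicates 2 and 3, and -0.23 and -0.11 in saline replicates 3 and 2. The ATPases showed the same order, at 0.11 to 0.22 in the 4 libraries and -0.07 to 0.14 in the other PICK1i libraries. The non-ATPases differed less, at -0.04 to 0.10 and -0.09 to 0.09. Against the 6 other saline libraries, the 4 high-share libraries were above 0 in 40 of 46 members with a median of 0.23, and the other 4 PICK1i libraries in 32 of 46 with a median of 0.03. The part of mitochondrial share and transcript length in the result was not tested.

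Leaving out saline replicates 2 and 3, none of the 46 members passed (17 had an unadjusted p under 0.05) and the median was 0.12, in a fit in which 5 of 15820 genes (0.0316%) passed. Leaving out the 4 PICK1i libraries, none passed (3 had an unadjusted p under 0.05) and the median was 0.04, in a fit in which 0 of 16121 genes passed. Leaving out all 6, none passed (1 had an unadjusted p under 0.05) and the median was 0.03, and 0 of 15992 genes passed. Psmc5 then had a log2 fold change of 0.26 ± 0.08 without the 2 saline libraries (adjusted p = 0.0735) and 0.17 ± 0.08 without the 4 PICK1i libraries (adjusted p = 0.423). With length tilt as a covariate none passed (4 had an unadjusted p under 0.05), the median was 0.03, and 2 of 15667 genes passed (0.0128%). A single library could also move the count: 1 member passed without saline replicate 2, saline replicate 3, PICK1i replicate 1 or PICK1i replicate 5 (with 1.9% to 4.45% of all genes called), 2 without PICK1i replicate 6 (3.42%), 3 without PICK1i replicate 2 (5.2%) or saline replicate 4 (5.58%), 9 without PICK1i replicate 3 (9.82%) or 4 (12.5%), and 12 without PICK1i replicate 7 (17.5%). The share of all genes called moved with the count of members. Psmc5 passed in all 16 of these fits.

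**Figure D4:**
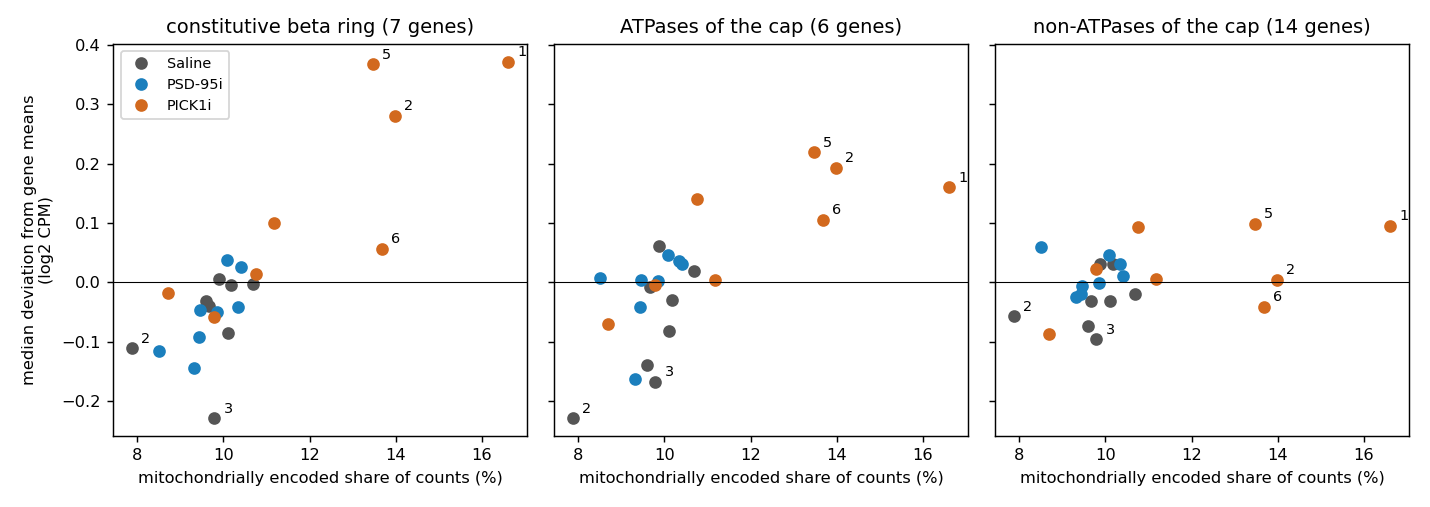
Median deviation of the members of a subgroup from their gene means (log2 CPM) against the mitochondrially encoded share of counts (%), with 1 point per library and numbers for saline replicates 2 and 3 and PICK1i replicates 1, 2, 5 and 6. PICK1i replicates 1, 2 and 5 stand highest for the beta ring at 0.28 to 0.37, and the non-ATPases stay within -0.10 to 0.10.

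None of the 5 immunoproteasome genes passed the threshold in PICK1i (and 0 had an unadjusted p under 0.05), where the called share was 9.15% of all genes. Their median was 0.04 with a range from -0.26 to 0.13. Against the 6 other saline libraries, the 4 high-share PICK1i libraries were above 0 in 5 of 5 genes. The median was 0.45, with 0.28 for the core and 0.11 for the cap. The other 4 PICK1i libraries were above 0 in 1 of 5, with a median of -0.10. In the fit without saline replicates 2 and 3, the 5 genes lay between 0.14 (Psmb10) and 0.37 (Psmb8), none past the threshold. Psmb8 held 1.35 to 5.91 CPM in saline (median 3.13) and 1.41 to 5.49 in PICK1i (median 3.01), a log2 fold change of 0.02 ± 0.28 (SE, adjusted p = 0.971). Psmb9 held 1.34 to 5.33 CPM in saline and 1.27 to 3.53 in PICK1i, a log2 fold change of -0.26 ± 0.27 (SE, adjusted p = 0.546). These 2 genes had 8 to 51 counts per library.

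Psmb10 held 21.6 to 29.1 CPM in saline and 22.8 to 38.8 in PICK1i, with a log2 fold change of 0.13 ± 0.09 (SE, adjusted p = 0.359). Psme1 held 42.9 to 61.3 and 41.3 to 68.1 CPM, at 0.10 ± 0.10 (SE, adjusted p = 0.498), and Psme2 20.3 to 35.9 and 19.5 to 35.2 CPM, at 0.04 ± 0.12 (SE, adjusted p = 0.879). Groups overlapped for all 5. Saline replicates 2 and 3 were the high saline libraries by the median deviation of the 5 genes, at 0.53 and 0.27. It was -0.24 to 0.05 in the other 6 saline libraries and -0.16 to 0.02 in PSD-95i. PICK1i replicates 1, 2, 5 and 6 were also high, at 0.12 to 0.51, and the other 4 PICK1i libraries were low, at -0.34 to -0.08. Psmb10 differed, with 29.1 and 24.9 CPM in saline replicates 2 and 3 and 21.6 to 29.0 in the other saline libraries. The microglia marker list, with 12 of 12 genes tested, summed to 339 to 395 CPM in saline replicates 2 and 3. Its sum was 436 to 495 CPM in the other saline libraries. The 4 high PICK1i libraries held 390 to 471 CPM, and the low ones 389 to 436 CPM. Partners of the immunoproteasome in antigen presentation summed to 833 to 949 CPM in these 2 saline libraries, against 415 to 615 CPM in other saline. They reached 390 to 532 CPM in the high PICK1i libraries and 388 to 464 CPM in the low ones. These sums are relative to the unscaled library total, pituitary RNA included. The part of microglia in the pattern was not tested.

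**Figure D5:**
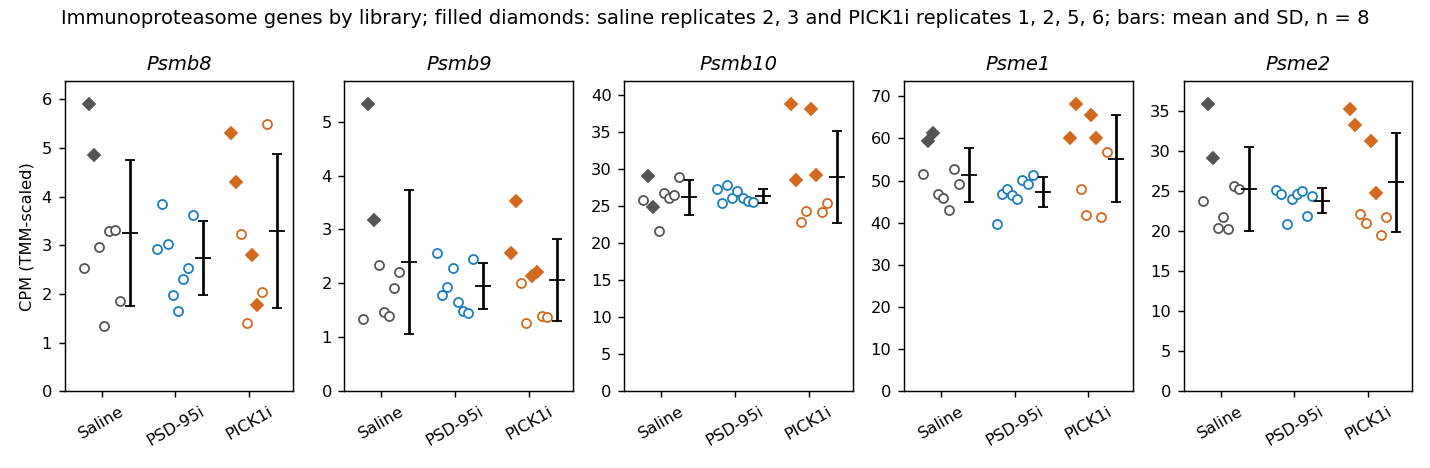
CPM in every library of the 5 immunoproteasome genes, with the markers of the plot of the 5 called members. The filled diamonds hold the highest saline values of Psmb8, Psmb9 and Psme2 (5.91, 5.33 and 35.9 CPM).

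In PSD-95i no member passed the threshold, and no gene of the 15667 did (0% called). With edgeR, 1 member had an unadjusted p under 0.05, against 1719 genes, and DESeq2 called no member either. Psmd3, a scaffold subunit of the cap, was that member, at 137 ± 4.83 CPM in saline and 149 ± 8.53 in PSD-95i (SD, n = 8), a log2 fold change of 0.11 ± 0.05 (SE, adjusted p = 0.425). The members' median was 0.03, with 31 of 46 above 0, against -0.003 over all genes. Psmc5 was at 0.11 ± 0.08 and Psmb5 at 0.13 ± 0.09, and the immunoproteasome genes lay between -0.31 (Psmb9) and 0.01 (Psmb10).

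The compounds were also compared with each other. No member passed in PSD-95i against PICK1i (0% of all genes called), and 17 members had an unadjusted p under 0.05, against 3789 genes. DESeq2 called 7 members, with 8.04% of all genes, and limma-voom 1, with 2.74%. The median was -0.12, with 9 of 46 members above 0, and all 14 core members were below 0. Without PICK1i replicates 1, 2, 5 and 6 the median was -0.013, with 17 of 46 above 0, and with length tilt as a covariate it was 0.0003, with 23 of 46 above 0. Psma4 had the smallest p, with 66.2 ± 1.96 CPM after PSD-95i against 81.7 ± 13.8 CPM after PICK1i (SD, n = 8), a log2 fold change of -0.30 ± 0.07 (SE, adjusted p = 0.0513). PICK1i replicates 1, 2 and 5 held 89.97, 97.5 and 104 CPM of Psma4, and the other 5 PICK1i libraries 64.9 to 76.2 CPM. The change was -0.11 (adjusted p = 0.9995) without PICK1i replicates 1, 2, 5 and 6, -0.08 with length tilt as a covariate (adjusted p = 1), and -0.30 without saline replicates 2 and 3, where it passed (adjusted p = 0.0324). The doses were 25 and 56 mg/kg and the compounds have different targets, so the values are side by side and no comparison of potency is made. The spread between libraries of a member was smaller in PSD-95i (median coefficient of variation 6.25%) than in PICK1i (11.9%), with saline at 7.50%.

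Genes that work with the proteasome were listed separately. Of 20 tested genes for shuttles, receptors, deubiquitinases, assembly and control (Paaf1 had no row), 2 passed as higher and 2 as lower in PICK1i. Over all tested genes, 4.88% passed as higher and 4.27% as lower. The median of the 20 genes was -0.02. Pomp, the chaperone that matures the core, rose from 83.7 ± 5.28 to 103 ± 11.3 CPM (SD, n = 8; log2 fold change 0.29 ± 0.06, adjusted p = 0.0181), and Adrm1, a ubiquitin receptor of the cap, from 40.3 ± 3.21 to 50.6 ± 7.64 CPM (0.32 ± 0.07, adjusted p = 0.0191). PICK1i replicates 1, 2, 5 and 6 held 109.9 to 117.5 CPM of Pomp and the other 4 PICK1i libraries 84.6 to 97.5 CPM. Ube3c, a ubiquitin ligase of the complex, fell by 0.25 on the log2 scale (adjusted p = 0.041), and it held 48.5 to 54.7 CPM in the same 4 libraries and 60.97 to 76.0 CPM in the other 4. Without the 4 libraries Pomp was at 0.15 (adjusted p = 0.377), Adrm1 at 0.15 (adjusted p = 0.379) and Ube3c at -0.07 (adjusted p = 0.659). Without saline replicates 2 and 3 they were at 0.27, 0.32 and -0.29 and also missed the threshold (adjusted p of at most 0.0675). Ube3c missed it in 9 of 16 fits that left out 1 library. Nfe2l2, a stress-responsive transcription factor, fell by 0.58 (adjusted p = 0.0383), but its saline values ran from 22.9 to 59.5 CPM and without saline replicates 2 and 3 the change was -0.20 (adjusted p = 0.205). Nfe2l1, the factor known to raise subunit genes, was at -0.11 (adjusted p = 0.419).

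Ubb, a ubiquitin gene, held 1177 ± 77.7 CPM in saline and 1399 ± 166 in PICK1i (SD, n = 8), and rose by 0.25 on the log2 scale (adjusted p = 0.0272). Its change was 0.19 (adjusted p = 0.0922) without saline replicates 2 and 3 and 0.09 (adjusted p = 0.562) without PICK1i replicates 1, 2, 5 and 6. Of 13 partners of the immunoproteasome in antigen presentation, 2 passed as lower and none as higher, with a median of -0.33. The share of all tested genes that passed as lower was 4.27%. Erap1, a peptide-trimming enzyme, fell by 0.73 (adjusted p = 0.0191) and Tapbp, a peptide loader, by 0.62 (adjusted p = 0.0253). Both were high in the pituitary-rich saline libraries: without them the changes were -0.40 and -0.22, neither past the threshold. In PSD-95i against saline neither Ubb nor any gene of the proteasome-associated and antigen-presentation lists passed.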

How the data were processed

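The deposited tables hold expected counts per gene and per transcript, estimated by the authors and not normalised, from 52-base paired poly(A) reads. STAR and Salmon (versions not stated), bcl2fastq 2.20.0 and the build GRCm38 are listed per the submitters' processing notes. No annotation release is named there. Of all gene-level values, 94.3% lay within 0.001 of a whole number.

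Estimated counts were rounded, filtered by filterByExpr (minimum count 10, 15667 genes kept) and scaled by TMM, and 1 fit of all 24 libraries (21 residual degrees of freedom, biological coefficient of variation 14.4%) was tested two-sided by quasi-likelihood F-tests (edgeR 4.0.16, R 4.3.3), with Benjamini-Hochberg adjustment over all genes tested and a threshold of 0.05. The SE is the log2 fold change divided by the root of F. Levels between genes used transcript counts and GENCODE M21 lengths (TPM), and levels of 1 gene between libraries used TMM-scaled CPM, while summed levels of marker lists are relative to the unscaled library total. Promoter windows are RefSeq's (GRCm38.p6) and were matched by symbol for 40 of the 48 members. Sem1 and Ecpas were matched by identifier. Members of a subgroup were summarised in a library by the median deviation of their log2 CPM (prior count 2) from the gene means. No replicates were identical among 84 pairs. Same-numbered libraries did not deviate together, so the replicate number is not used as a block.

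Full statistics are given for members past the threshold in any comparison and for the 5 immunoproteasome genes, and otherwise the 2 smallest p of a subgroup could be named. Of the fixed lists (proteasome-associated, ubiquitin and E1, immunoproteasome partners, and markers of 10 cell types or tissues), up to 4 past the threshold could be named, and the summary of the ubiquitin and E1 list is not reported here. Psmd1, Psmd2, Nfe2l1 and the members named by their saline level were chosen after their values were seen. The members and lists were chosen with earlier results of these data known. On simulated data with each gene's mean and dispersion, the test for PICK1i against saline called 24% of genes changed by 0.32 on the log2 scale. It called 94% of those changed by 1, and 7.46% of its calls were false. The simulated libraries varied independently, without sets of libraries that stand apart together, so these shares cannot be carried over to the calls on the real libraries. The settings varied were the size factors (RLE), the filter (none or stricter), the replicate block, the tool (DESeq2 1.42.0, limma-voom in limma 3.58.1, and the latter with pairs of neighbouring library numbers as a random effect), only the groups compared, each library left out, the libraries that stand apart left out, 2 surrogate variables (sva 3.50.0) and length tilt as a covariate.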

Additional observations from a re-analysis of the deposited data

Results flagged for a closer look

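In 138 groups of 8 libraries (46 members in 3 groups), 9 held a library whose gap to the nearest other was a larger share of the group's range than Dixon's critical value allows. Chance alone flags about 1 in 20 groups, which is 6.9 of 138. Of the 9, 5 were in saline replicates 2 or 3, the libraries with pituitary markers. In saline replicate 2, Psma7 was high at 57.4 CPM (the other saline libraries held 49.6 to 51.8), Psmb2, a beta subunit, at 94.1 CPM (61.2 to 75.3) and Psmb9 at 5.33 CPM (1.34 to 3.18). In saline replicate 3, Psmb5 was low at 54.4 CPM (72.8 to 83.4) and Psmd2 at 139.9 CPM (161 to 173). In PICK1i, Psmc3, an ATPase, was high in replicate 6 at 154 CPM (101 to 125), and Psmd9, an assembly factor of the cap, was high in replicate 1 at 47.0 CPM (34.9 to 39.9). In PSD-95i, Psmd6 was low in replicate 3 at 47.1 CPM (51.5 to 54.7), and Psmd7 was high in replicate 2 at 131 CPM (122 to 126). The part of the pituitary RNA in these values was not tested.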

How the results depend on the processing

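In PICK1i against saline, the 5 members called became 3 with the replicate block (7.19% of all genes called), 9 with DESeq2 (12.5%), 3 with limma-voom (7.11%), 1 with limma-voom and pairs of neighbouring library numbers as a random effect (2.02%), and 0 (at most 0.823%) with only the 2 groups compared, without saline replicates 2 and 3, without PICK1i replicates 1, 2, 5 and 6, without all 6, with 2 surrogate variables and with length tilt as a covariate. Leaving out each library gave 1 to 12 (1.9% to 17.5%). RLE size factors, no filter and a stricter filter gave 5 each. The cause was not tested. In PSD-95i against saline, 0 members passed under every alternative. In PSD-95i against PICK1i, 1 passed with a stricter filter (3.33% of all genes), 7 with DESeq2 (8.04%), 1 with limma-voom (2.74%), 1 without saline replicates 2 and 3 (7.64%), 6 with 2 surrogate variables (9.82%), and 0 to 11 with each library left out (3, 5, 11 and 1 without PICK1i replicates 3, 4, 7 and 8, with 4.79%, 9.0%, 14.7% and 2.4% of all genes).

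All 5 called members kept a log2 fold change above 0 in every fit run. Over the 13 alternatives other than single libraries, Psmc5 ranged from 0.10 to 0.33 (adjusted p 0.00377 to 0.711) and Psmb5 from 0.09 to 0.32 (0.0111 to 0.77). With each library left out, Psmc5 passed in 16 of 16 fits, Psmb5 in 12, Psmc4 in 9, Psmd13 in 8 and Psma7 in 7. Members above 0 in PICK1i against saline went from 40 of 46 to 31 without the 4 PICK1i libraries, 29 without all 6 and 32 with length tilt. The members named with statistics that missed the threshold changed sign as follows, none of them past the threshold. In PICK1i against saline without the 4 PICK1i libraries, Psmg4 was at -0.013, Psmb8 at -0.094, Psmb10 at -0.12, Psme1 at -0.13 and Psme2 at -0.27. Without all 6 libraries, Psmg3 was at -0.0053, Psmb10 at -0.10, Psme1 at -0.046 and Psme2 at -0.13. With length tilt, Psmb8 was at -0.27, Psmb10 at -0.091, Psme1 at -0.15 and Psme2 at -0.27. Psmb9 was at 0.16 without the 2 saline libraries and 0.23 with surrogate variables, and Psme4 at 0.033 with the latter. Single libraries left out gave -0.15 to 0.21 for Psmb8, -0.41 to 0.025 for Psmb9, -0.035 to 0.12 for Psme2 and -0.066 to 0.0041 for Psme4. In PSD-95i against saline, Psmb8, Psmb9 and Psme2 were at 0.11, 0.11 and 0.053 without the 2 saline libraries, at 0.11, 0.11 and 0.052 without all 6, and at 0.26, 0.23 and 0.11 with surrogate variables. Psmb10 was at -0.0007 with the stricter filter and at -0.029 to 0.026 with single libraries left out.

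The replicate number did not pair the libraries: the correlation of deviations of same-numbered libraries exceeded 0.1 in 3 of 8 pairs for PICK1i and saline, and the replicate block left Psmb5, Psmc5 and Psmd13 called (3 members). The block left 0 calls in both comparisons with PSD-95i. Psmb8 and Psmb9 rest on 8 to 51 counts per library, and counting error was not separated from the spread between libraries.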
